A study of Solenopsis invicta with 4 samples.

Results

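The genes described are those of the Piwi-interacting RNA (piRNA) pathway in workers of a fire ant, Solenopsis invicta: aubergine (LOC105195576), piwi-like protein 1 (LOC105202009), the RNA helicase vasa (LOC105193214), and any tudor or maelstrom contig with an ant transcript hit. Members were the assembled contigs that the annotation assigns to these genes, 7 of the 9001 contigs in the 3 deposited tables. They were 2 contigs of aubergine, 1 of piwi-like protein 1, 2 of vasa and 2 of a tudor-like gene (LOC105207983), while 0 contigs were found for maelstrom. RNA came from whole bodies of adult wild-type medium workers of the strain labelled RIFA, from colonies kept at 25 °C, after 24 h at 10, 20, 30 or 40 °C, with 30 °C as the control. Each temperature had 1 library, so no difference below has a replicate check, and no test between temperatures could be made. The number of ants in a library is not given in the sources used here. In whole-body RNA, fewer cells of a type and less RNA per cell cannot be told apart.

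Piwi proteins are Argonaute-family proteins that carry piRNAs and use them to find and cut transposon transcripts, mainly in the germ line. In Drosophila and the silkworm, Aubergine (Siwi in the silkworm) and Ago3 cut transcripts in turn and so amplify piRNAs, Vasa is the DEAD-box helicase that hands the cut RNA between them, and Tudor-domain proteins are the scaffolds that bind methylated arginines of Piwi proteins. Workers of this species are known to lack ovaries.

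The annotation in the files showed which pieces of the genes were measured. Of the aubergine contigs, c402596_g2_i1 (contig A) matched the Piwi domain, the cutting domain, at residues 643 to 930 of an ant protein, and c402596_g1_i6 (contig B) matched the PAZ domain, which holds the end of the small RNA, at residues 288 to 429 of the same protein. Both had silkworm Siwi as their closest curated protein. The contig of piwi-like protein 1 (c411148_g4_i3) also held a Piwi domain, and its closest curated protein was silkworm Ago3. The tudor-like contigs c405505_g4_i1 (contig A) and c402957_g1_i1 (contig B) each matched a TUDOR domain. Of vasa, c400915_g1_i1 (contig B) matched the protein, and c411459_g2_i1 (contig A) matched the transcript and had no protein hit. In the annotation of assembly UNIL_Sinv_3.0 the vasa gene overlaps another gene, LOC105193215, while aubergine, piwi-like protein 1 and the tudor-like gene overlap none. Whether the counting used strand is not given in the sources used here, so reads of vasa and its neighbour may not be separable. Reads of related Piwi genes may also be shared.

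The tables are filtered lists. Each holds the read counts at 30 °C and at 1 other temperature, for contigs with a raw p under 0.05 in the authors' comparison, and a contig missing from a table is not called unchanged. Of the 7 contigs, 5 were listed at 10 °C, 1 at 20 °C and 3 at 40 °C, and 2 were in more than 1 table. Of all 9001 contigs, 4596 were listed at 10 °C, 2953 at 20 °C and 4067 at 40 °C. Levels are CPM (read counts scaled to the library size) on the authors' scaled library sizes, which were 38277639 reads for the control, 30024104 for 10 °C, 23204029 for 20 °C and 43393168 for 40 °C. Intervals are exact 95% intervals and cover counting error only.

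At 30 °C the members covered a wide range of levels per length, given as FPKM (fragments scaled by contig length and library size). Aubergine was highest, with 17.35 FPKM (16.5 to 18.3, 1443 reads) for contig A and 10.87 FPKM (10.1 to 11.7, 716 reads) for contig B. Piwi-like protein 1 stood at 2.25 FPKM (upper bound 2.52, 297 reads). Aubergine contig B was thus 4.83 times (4.21 to 5.55) the FPKM of piwi-like protein 1. Vasa contig A had 1.97 FPKM (1.39 to 2.70, 38 reads) and contig B 0.98 FPKM (0.548 to 1.62, 15 reads). The tudor-like gene was lowest, at 0.92 FPKM (0.601 to 1.35, 26 reads) for contig A and 0.64 FPKM (0.385 to 0.999, 19 reads) for contig B. Neighbours in this order whose ratio had an interval including 1 were piwi-like protein 1 and vasa contig A, vasa contig B and tudor-like contig A, and the tudor-like contigs.

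**Figure D1:**
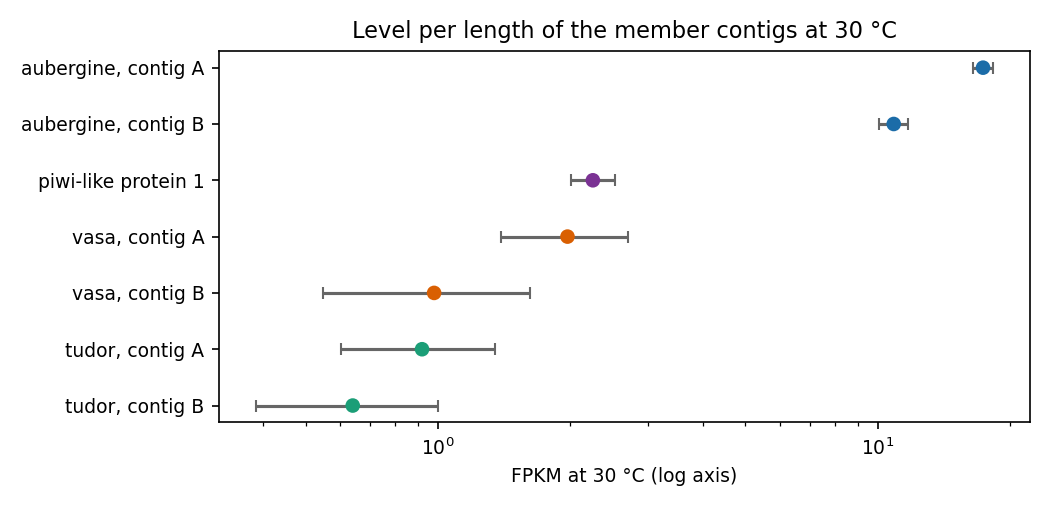
Level per length of the 7 member contigs in the library at 30 °C, as FPKM on a log axis, with exact 95% counting intervals as bars. Aubergine stands above all other members, and the tudor-like contigs are lowest, at 0.92 and 0.64 FPKM.

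Aubergine, the Piwi protein that cuts transposon transcripts, was lower at 10 °C than at 30 °C in both of its contigs. Contig A had 12.4 CPM (372 reads) at 10 °C against 37.7 CPM (1443 reads) at 30 °C. It was 3.04-fold (2.71 to 3.42) lower. Contig B had 7.16 CPM (215 reads) against 18.7 CPM (716 reads). It was 2.61-fold (2.24 to 3.06) lower. The contigs cover different domains of the protein, and their ratios to 30 °C differed by a factor of 1.16 with an interval that includes 1 (0.958 to 1.41). Summed, aubergine had 19.6 CPM at 10 °C and 56.4 CPM at 30 °C, a 2.88-fold (2.63 to 3.17) lower level. Neither contig was listed at 20 or 40 °C.

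How far an unlisted value could lie from 30 °C was worked out from the authors' own test, which an exact test with a fixed dispersion of 0.09 matched within 1% for 100% of listed contigs. If aubergine contig A was tested, it would have stayed outside the table with 15.9 to 88.7 CPM at 20 °C and with 693 to 3849 reads (up to 88.7 CPM) at 40 °C. The 12.4 CPM at 10 °C lies below both ranges. That follows largely from the filter, since a listed value must lie outside such a range. The ranges for contig B were 7.84 to 44.2 CPM at 20 °C and 7.88 to 44.1 CPM at 40 °C, above its 7.16 CPM at 10 °C. The counting interval of that value, 6.24 to 8.18 CPM, reaches into both ranges. These ranges hold differences of up to about 2.4-fold in either direction (2.35 to 2.38), so a smaller change at 20 or 40 °C would not be seen in the tables.

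**Figure D2:**
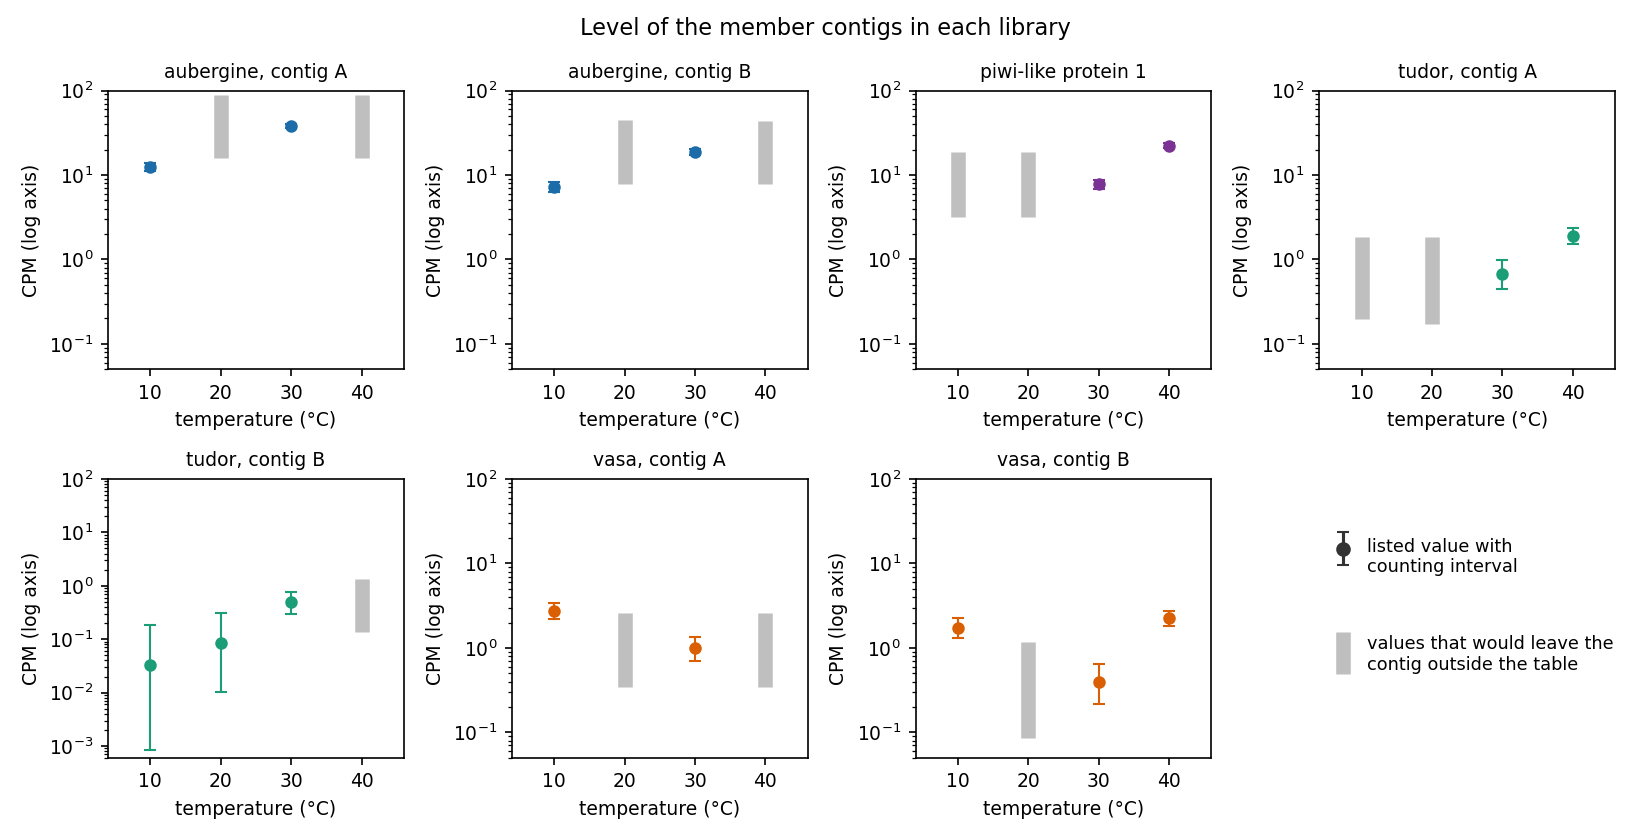
Level of each member contig by temperature, as CPM on a log axis. Points are listed values with exact 95% counting intervals, and grey bars are the values that would leave the contig outside that table. Aubergine is low at 10 °C, piwi-like protein 1 high at 40 °C, and vasa contig B is at 1.73 CPM at 10 °C and 2.26 CPM at 40 °C against 0.392 CPM at 30 °C.

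Vasa, the helicase, stood higher at 10 °C, the direction opposite to aubergine in the same pair of libraries. Contig B had 1.73 CPM (52 reads) at 10 °C against 0.392 CPM (15 reads) at 30 °C. It was 4.42-fold (2.45 to 8.45) higher. Contig A had 2.76 CPM (83 reads) against 0.993 CPM (38 reads). It was 2.78-fold (1.88 to 4.20) higher. Both contigs pointed the same way, and their ratios to 30 °C differed by a factor of 1.58 with an interval that includes 1 (0.761 to 3.42). Summed, vasa had 4.50 CPM at 10 °C and 1.38 CPM at 30 °C, 3.25-fold (2.35 to 4.55) higher.

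The shift between aubergine and vasa does not depend on how the libraries are scaled. There were 40.7 aubergine reads per vasa read at 30 °C and 4.35 at 10 °C, a 9.36-fold (6.67 to 13.3) lower ratio at 10 °C. The size of this shift follows in part from the filter. Every contig listed at 10 °C differs from 30 °C by at least 2.36-fold, so listed genes of opposite direction must differ widely in their ratio. Per length the genes lay close together at 10 °C. Aubergine contigs A and B had 5.61 FPKM (5.05 to 6.21) and 4.09 FPKM (3.56 to 4.67), and vasa contigs A and B had 5.39 FPKM (4.29 to 6.68) and 4.25 FPKM (3.17 to 5.57). At 10 °C the interval of each vasa contig overlapped that of each aubergine contig.

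At 40 °C vasa contig B was again above 30 °C, with 2.26 CPM (98 reads) against 0.392 CPM (15 reads). It was 5.76-fold (3.33 to 10.7) higher. The values at 10 and 40 °C share the 1 control library, and 15 reads there set both ratios. Set against each other directly, 40 °C was 1.30 times 10 °C, with an interval of 0.922 to 1.86 on the authors' scaling. On the FPKM scale the contig had 4.25 FPKM (3.17 to 5.57) at 10 °C and 8.13 FPKM (6.60 to 9.91) at 40 °C, intervals that do not overlap, so whether the temperatures differ depends on the scaling. The contig was not listed at 20 °C, where 0.0862 to 1.16 CPM would have left it outside the table. That range lies below its values at 10 and 40 °C, again largely a result of the filter. Vasa contig A was not listed at 40 °C. Its range there, 0.346 to 2.58 CPM, reaches up to 2.60 times its level at 30 °C, below the interval of contig B. The gene sum of vasa at 40 °C holds contig B alone.

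Piwi-like protein 1, the gene closest to silkworm Ago3, was listed at 40 °C alone. It had 22.2 CPM (962 reads) at 40 °C against 7.76 CPM (297 reads) at 30 °C. It was 2.86-fold (2.51 to 3.27) higher. At 10 and 20 °C, 3.20 to 18.5 and 3.19 to 18.5 CPM would have left it outside the tables. Its 40 °C level is above both ranges, which also follows largely from the filter. Per length it reached 9.12 FPKM (8.55 to 9.72) at 40 °C, beside 8.13 FPKM (6.60 to 9.91) for vasa contig B and 3.68 FPKM (2.93 to 4.57) for tudor-like contig A. Reads of piwi-like protein 1 per read of vasa contig B were 9.82 at 40 °C and 19.8 at 30 °C. That is a 2.02-fold (1.14 to 3.80) lower ratio at 40 °C. Vasa contig A, with 38 reads at 30 °C, is left out at both temperatures because it was not listed at 40 °C. Between 15 and 112 reads would have left it outside that table, so the ratio to the whole vasa gene is not known.

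The tudor-like gene, a putative scaffold, gave different directions in different contigs. Contig B was lower in the cool libraries, on few reads. It had 0.0333 CPM (1 read) at 10 °C and 0.0862 CPM (2 reads) at 20 °C against 0.496 CPM (19 reads) at 30 °C. These are ratios of 14.9-fold (2.37 to 619) and 5.76-fold (1.39 to 51.0) lower. Contig A was higher at 40 °C, with 1.89 CPM (82 reads) against 0.679 CPM (26 reads), a 2.78-fold (1.77 to 4.51) higher level. A further contig of the gene (c298901_g1_i1), which the membership rule leaves out because its protein hit has no name, was 16.6-fold (4.15 to 144, 26 reads against 2) higher at 10 °C. At 10 °C the gene thus had contigs on both sides of 30 °C, and their ratios differed by a factor of 182 (17.3 to 10612). Opposite contigs within 1 gene are common in these tables. Of 200 ant genes with at least 2 listed contigs at 10 °C, 58 (29.0%) had both directions, and the tudor-like gene gives no single direction there.

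Both scalings in the files gave the members the same directions. No listed contig could have reversed, because the scalings differ by less than the smallest listed fold. On the scale of the FPKM columns, which follow total reads, log2 ratios shift by -0.02 at 10 °C, -0.64 at 20 °C and 0.52 at 40 °C. Piwi-like protein 1 then becomes 4.08-fold higher at 40 °C, vasa contig B 8.24-fold higher and tudor-like contig A 3.98-fold higher. Aubergine at 10 °C becomes 3.09-fold lower in contig A and 2.66-fold lower in contig B. Tudor-like contig B at 20 °C becomes 8.96-fold lower, from 5.76-fold. The sizes at 20 and 40 °C therefore rest on the scaling, and those at 10 °C move little.

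**Figure D3:**
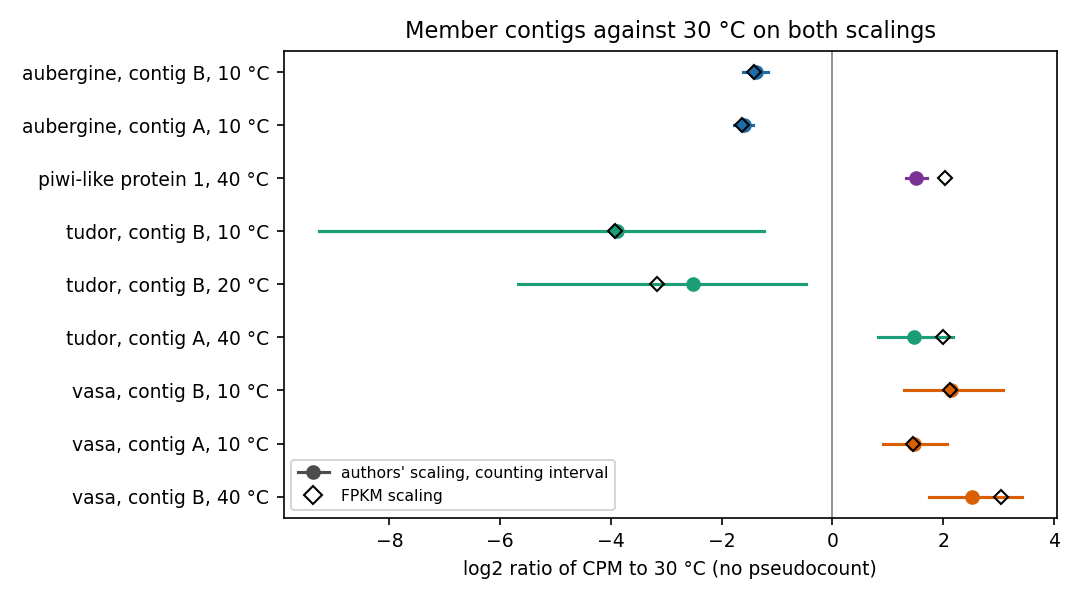
Log2 ratio of CPM to 30 °C, without a pseudocount, for the 9 pairs of a member contig and a table that lists it. Filled points carry the authors' scaling with exact 95% counting intervals, and open diamonds the FPKM scaling. Aubergine and tudor-like contig B lie below 0 and vasa, piwi-like protein 1 and tudor-like contig A above 0 on both scalings.

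The members' counts were set beside those of the whole tables. At 10 °C 2 of 5 members were higher, beside 56.5% of all listed contigs, and 3 were lower, beside 43.5%. A limit of 2-fold was set on log2(CPM + 1), for contigs averaging 1 CPM or more over both libraries, and 4 members could be counted. Of these 2 were lower, both of aubergine (47.0% of all counted contigs were lower), and 0 were higher (36.2% of all were), because the pseudocount brings the vasa contigs to log2 ratios of 0.97 and 0.92. At 40 °C all 3 members were higher (46.7% of all listed contigs were). Of these, 2 passed the limit upward (40.1% of all counted did) and 0 downward (43.4% did). Their median log2 ratio was 1.23 against -0.82 over all counted contigs. Contigs with a protein hit and an ant transcript hit had a median of 1.11 at 40 °C. At 20 °C the single member, tudor-like contig B, was lower (47.6% of all listed were). It lay under 1 CPM, so 0 members were counted there, where 31.4% of counted contigs were past the limit upward and 48.3% downward. In the authors' deposited table for 40 °C, vasa contig B had an adjusted p under 0.05, as had 19.2% of listed contigs, while by the authors' deposited adjusted p-values 0 of 5 members at 10 °C (30.9% of listed contigs) and 0 of 1 at 20 °C (12.5%) did. Those p-values use no replicate.

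Other genes of the pathway were few in the tables. The list of piRNA genes, made of the members and of contigs matched by protein name, held 7 contigs at 10 °C. Of these 3 were higher (56.5% of all listed contigs were) and 4 lower (43.5%). Besides the members the list held aubergine-like (LOC105194044), a further Piwi gene by name, with contigs in both directions. Contig c409997_g2_i2 was 3.77-fold (2.18 to 6.93, 16 reads against 77) lower at 10 °C. Contig c191609_g1_i1 was higher, at 13 reads against 3. That gene overlaps 3 others in the reference annotation. At 20 and 40 °C the list held no contig beyond the members. Searching transcript and KEGG names as well, a choice made after the values were seen, added 3 contigs at 10 °C, all higher, 2 at 20 °C, 1 higher and 1 lower, and 3 at 40 °C, all lower. Those at 40 °C were a contig of FKBP6 (LOC105205773), the relative of the fly piRNA co-chaperone Shutdown, at 2.89-fold (1.73 to 4.96, 22 reads against 56), one named Tudor domain-containing protein 6 at 2.47-fold (1.91 to 3.21, 90 reads against 196), and one named for a PARN-like nuclease domain at 6.42-fold (1.86 to 34.2, 3 reads against 17). The FKBP6 contig was also lower at 20 °C, 4.85-fold (2.21 to 12.6, 7 reads against 56). A contig named Protein piwi from another ant (c398671_g1_i1) was higher at 10 °C (22 reads against 5) and at 20 °C (20 reads against 5). The others at 10 °C were the further tudor-like contig described above and one whose KEGG name alone is tudor domain-containing protein 5-like (c406948_g1_i1), 3.82-fold (1.66 to 9.85, 24 reads against 8) higher.

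The microRNA and small interfering RNA machinery, which works in body cells as well, was listed mainly at 40 °C, with 4 of 5 contigs higher (46.7% of all listed) and 3 of 4 counted past the limit upward (40.1% of all counted). Among contigs with a protein hit and an ant transcript hit, 960 of 1616 listed were higher at 40 °C and 596 of 1049 counted were past the limit upward. Argonaute-2 (LOC105208282) shares its name with the Argonaute of the small interfering RNA pathway in flies. The gene was 8.70-fold (6.13 to 12.7, 345 reads against 35) higher in c410109_g1_i1, whose closest curated protein was human argonaute-2. A further contig assigned to it by transcript alone was 6.15-fold (5.37 to 7.06, 1693 reads against 243) higher. Dcr-1-like (LOC105193592), named for the nuclease that cuts microRNA precursors, was 2.40-fold (2.20 to 2.62, 1855 reads against 682) higher. The trinucleotide repeat-containing gene 6C protein (LOC105196333), of the GW182 family that acts with Argonaute in microRNA silencing, was 2.76-fold (1.71 to 4.63, 72 reads against 23) higher. Exportin-5 (LOC105198644), which carries microRNA precursors out of the nucleus in mammals, had contigs in both directions, 6.66-fold (3.53 to 13.8, 83 reads against 11) higher and 2.90-fold (1.65 to 5.31, 18 reads against 46) lower. At 10 °C the list held 1 contig, of the 6C gene, which was 3.73-fold (1.71 to 9.25, 8 reads against 38) lower, and at 20 °C it held 0. A further contig of the 6C gene (c386942_g1_i1), matched by transcript name, was 2.91-fold (1.84 to 4.72, 64 reads against 28) higher at 10 °C. That gene thus had contigs in both directions there. With transcript and KEGG names included, the list at 10 °C had 2 higher (56.5% of all listed contigs were) and 2 lower (43.5%). Argonaute-2 was thus further from 30 °C at 40 °C than piwi-like protein 1, whose ratio of 2.86 lies below the interval of either Argonaute-2 contig.

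Germ cell and egg genes were looked at because the members are known from the germ line. None of nanos, oskar or the vitellogenin receptor named a contig in the tables, so these defining markers give no level here. By protein name the list had 6 contigs higher and 4 lower at 10 °C, 2 higher and 0 lower at 20 °C, and 9 higher and 1 lower at 40 °C. Of all listed contigs 56.5%, 52.4% and 46.7% were higher at 10, 20 and 40 °C. Among those with a protein hit and an ant transcript hit, 960 of 1616 were higher at 40 °C. Of 5 counted at 40 °C, 4 were past the limit upward (40.1% of all counted) and 1 downward (43.4%). Their median log2 ratio was 1.26, close to the 1.11 of all contigs with a protein hit and an ant transcript hit. Pumilio (LOC105199367), a translational repressor of germ cells and neurons in flies, was 6.97-fold (5.03 to 9.90, 324 reads against 41) higher at 40 °C in c404521_g2_i3. The mutS protein homolog 4-like gene (LOC105205496), named for a meiotic recombination factor, was 5.68-fold (4.11 to 8.03, 277 reads against 43) higher at 40 °C and 2.80-fold (1.90 to 4.18, 73 reads against 43) higher at 20 °C. Bicaudal C homolog 1-B (LOC105195962), an RNA-binding protein of egg development in flies, was 3.93-fold (2.71 to 5.85, 156 reads against 35) higher. Spermatogenesis-associated protein 6 (LOC105192821) stood 2.86-fold (2.09 to 3.97, 172 reads against 53) higher. Sperm-associated antigen 7 homolog (LOC105204590) was 2.97-fold (2.54 to 3.48, 225 reads against 589) lower.

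At 10 °C the list had 5 counted contigs, of which 3 were past the limit upward (36.2% of all counted) and 1 downward (47.0%). The downward one was sperm-associated antigen 6-like (LOC105196558), named for a protein of the sperm tail in mammals, which was 2.95-fold (2.09 to 4.25, 42 reads against 158) lower. The sperm-like histone H1A (LOC105198239), a linker histone, was 32.4-fold (13.5 to 101, 127 reads against 5) higher. CUGBP Elav-like family member 4 (LOC105201456), an RNA-binding protein of neurons in mammals, was 20.1-fold (11.5 to 38.4, 205 reads against 13) higher. The bicaudal D-related protein homolog (LOC105195222) was also higher, 9.24-fold (5.46 to 16.7, 116 reads against 16). The mutS protein homolog 5-like gene (LOC105204048), named for the partner of homolog 4, was 3.56-fold (2.01 to 6.70, 15 reads against 68) lower. A shorter pumilio contig (c394914_g1_i2) was 4.22-fold (2.23 to 8.55, 43 reads against 13) higher at 10 °C and 3.53-fold (1.89 to 7.06, 52 reads against 13) higher at 40 °C. At 20 °C a contig named testis-expressed sequence 9 (LOC105194498) was 7.42-fold (1.54 to 70.6, 9 reads against 2) higher. Many genes of this list are also used outside the germ line. Markers of other cell types were few as well. Fat body markers had 0 listed contigs at 10 °C, 2 lower at 20 °C, and 4 higher and 1 lower at 40 °C. Neuron markers had 1 higher at 10 °C, and 1 higher and 1 lower at 40 °C. Venom gland markers had 3 higher at 10 °C, 3 higher and 1 lower at 20 °C, and 1 higher and 1 lower at 40 °C, with the summed venom allergen 2 contigs at 234 CPM at 20 °C against 22.3 CPM at 30 °C. Muscle markers had 1 higher at 10 °C, 1 lower at 20 °C, and 1 higher and 1 lower at 40 °C. The direction of the germ cell list depends on how it is matched. With transcript and KEGG names included, the germ cell list had 15 contigs higher (46.7% of all listed contigs were) and 10 lower at 40 °C. Its median log2 ratio there turned to -1.10 over 17 counted contigs. At 10 °C the list had 10 higher (56.5% of all were) and 11 lower, and its median turned from 1.78 to -0.89 over 9 counted contigs. The part of germ cells or of these other cells in the members' values was not tested.

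**Figure D4:**
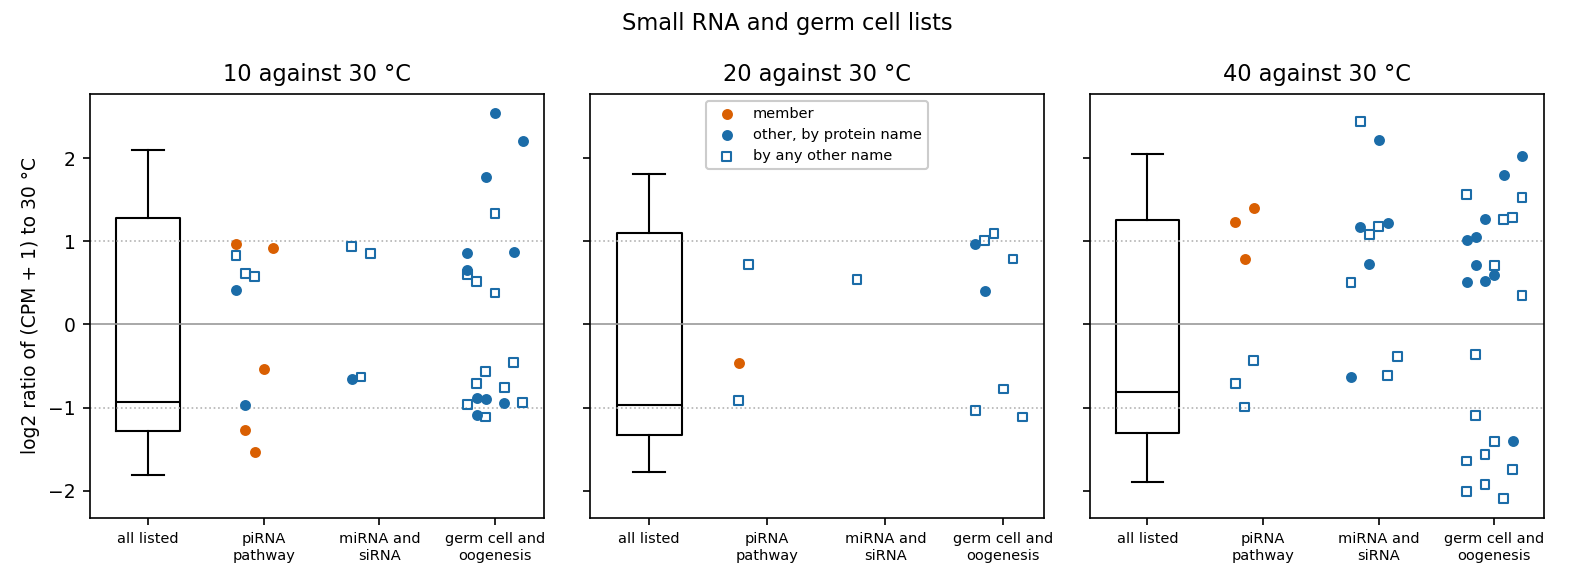
Log2 ratio of CPM plus 1 to 30 °C for every listed contig of the piRNA, small RNA and germ cell lists, in the table of each temperature. Filled points match by protein name (members in orange) and open squares only by another name, the box shows quartiles and the 5 to 95% range of all contigs counted in that table, and dotted lines mark 2-fold. Members lie on both sides of 0 at 10 °C and above 0 at 40 °C.

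Vasa contig B was the one contig of aubergine, piwi-like protein 1 and vasa with values in 3 libraries, so it alone has a pattern to match. Among 254 contigs in the same tables with a protein hit, an ant transcript hit and at least 50 reads in the highest library, the 5 closest were ranked by Euclidean distance of centred log2(CPM + 1) at 10, 30 and 40 °C. The nearest was a protamine-like protein (LOC105204030), at a distance of 0.0743, with 2.20, 0.522 and 2.60 CPM. Next were ras-specific guanine nucleotide-releasing factor 2 (LOC105207818) at 0.0819, uncharacterized LOC105196259 at 0.0820, a probable cytochrome P450 6a14 (LOC105206766) at 0.114 and uncharacterized LOC105193588 at 0.123. All 5 were low at 30 °C, between 0.287 and 0.705 CPM. Their control values rest on 11 to 27 reads each, and the likeness on 3 libraries.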

How the data were processed

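Per the labels' protocols, Trizol RNA of whole workers was reverse transcribed with oligo-dT and sequenced on Illumina libraries. The submitters' processing notes name Trimmomatic 0.38, FastQC 0.11.7, Bowtie 1.1.2 and RSEM; the assembler and builds are not given in the sources used here. Per the file headers, the authors deposited expected counts, that is, each estimated count of reads (whole in every listed contig), FPKM, log2 normalized values, log2 CPM, a signed fold score and p-values for 4596, 2953 and 4067 contigs at 10, 20 and 40 °C; 1 line of the last table was not used here. The authors' log2 values give 1 constant scaled library size per library, used for CPM; 1 read was worth 0.0431 CPM at 20 °C and 0.0230 at 40 °C.

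Ratios carry exact conditional binomial 95% intervals; level intervals are exact Poisson intervals. Without molecular identifiers, reads may repeat 1 molecule. Ratios between genes use the conditional odds ratio. The binomial intervals of the ratios were tested on simulated counts. Unlisted ranges came from edgeR 4.0.16 (R 4.3.3); genes were matched in UNIL_Sinv_3.0. Members and lists were chosen with earlier results of these data known. Named genes are all members, up to 4 contigs of each small RNA list and 6 of the germ cell list per table by mean CPM, and the 5 nearest patterns; the proteins were not analysed here. Alternatives were other pseudocounts, filters, scaling, fold limits and gene matching. Intervals used SciPy 1.17.1 and tables pandas 2.3.3 under Python 3.11.15.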

Additional observations from a re-analysis of the deposited data

Results flagged for a closer look

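A contig of vitellogenin-3 (LOC105205783), a yolk protein gene, lay on opposite sides of 30 °C in 2 tables. It had 0.215 CPM (5 reads) at 20 °C and 6.34 CPM (275 reads) at 40 °C against 1.49 CPM (57 reads) at 30 °C, log2 ratios with a pseudocount of 1 CPM of -1.03 and 1.56. The difference was not tested, since each temperature had 1 library. A further contig (c412788_g5_i1) matched only a partial sequence of the vitellogenin-3 gene with its 5' flanking region, and had no protein hit. It was lower at 40 °C, with 0.346 CPM (15 reads) against 4.44 CPM (170 reads). Whether it is part of the vitellogenin-3 transcript is not known.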

How the results depend on the processing

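No paired analysis was possible because each temperature had 1 library, and no replicate could be left out. No gene sum changed direction under any alternative run, but none could have. A pseudocount cannot turn the sign of a log2 ratio, and the scalings differ by less than the smallest listed fold. The contigs summed for a gene also pointed the same way. The tudor-like sums hold contig B alone at 10 and 20 °C and contig A alone at 40 °C. No alternative added the further tudor-like contig c298901_g1_i1, which was higher at 10 °C (26 reads against 2). The tudor-like values below are therefore not a direction of the whole gene at 10 °C. The median of the germ cell list changed direction with the wider names, from 1.78 to -0.89 at 10 °C and from 1.26 to -1.10 at 40 °C. With a pseudocount of 0.1 the log2 ratios of gene sums became 1.63 for vasa at 10 °C, -2.16 and -1.68 for the tudor-like gene at 10 and 20 °C, and 2.26 and 1.35 for vasa and the tudor-like gene at 40 °C. With 5 they became -1.32 for aubergine and 0.57 for vasa at 10 °C, -0.13 and -0.11 for the tudor-like gene at 10 and 20 °C, and 1.09, 0.43 and 0.28 for piwi-like protein 1, vasa and the tudor-like gene at 40 °C. The FPKM scaling gave 1.90 for piwi-like protein 1.

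Counts past the limit moved too. For the members, a pseudocount of 0.1 gave 2 higher at 10 °C (the vasa contigs) in place of 0, and 5 left 1 lower at 10 °C and 1 higher at 40 °C. A filter of 10 CPM left 1 higher at 40 °C, and a 4-fold limit left 0 lower at 10 °C and 0 higher at 40 °C. The piRNA list gave those same counts, and 0 in both places without the members. For the small RNA list 3 higher at 40 °C became 1 with 10 CPM, 1 at 4-fold and 5 with the wider names. For the germ cell list at 10 °C, 3 higher became 1 with a pseudocount of 5 and 0 with 10 CPM, and 1 lower became 2 with 0.1 or the wider names and 0 with 5, 10 CPM or 4-fold. At 20 °C its 0 higher became 1 with 0.1 and 2 with the wider names, and its 0 lower became 1 with those names. At 40 °C its 4 higher became 1 with 5, 0 with 10 CPM, 1 at 4-fold and 8 with the wider names, and its 1 lower became 0 at 4-fold or on the FPKM scaling and 9 with the wider names. The wider names were chosen after seeing the data. The vasa and tudor-like values rest on 15 to 38 control reads, which limits their precision.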

Other observations

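Contigs with transposon words in the protein name, the kind of transcript that piRNAs act on, were collected with a list chosen after earlier results were known. At 10 °C 21 of 41 were higher (56.5% of all listed contigs were) and 20 lower (43.5%). At 20 °C 18 of 34 were higher (52.4%) and 16 lower (47.6%), and at 40 °C 18 of 44 were higher (46.7%) and 26 lower (53.3%). Of the 23 counted at 10 °C, 12 were past 2-fold upward (36.2% of all counted contigs) and 9 downward (47.0%). Their median log2 ratio was 1.14, beside -0.93 over all counted contigs. At 20 °C 22 were counted, 9 past 2-fold upward (31.4% of all) and 6 downward (48.3%), and their median was 0.92 beside -0.97 over all. Of 23 counted at 40 °C, 9 were past 2-fold upward (40.1% of all) and 7 downward (43.4%), and the median was -0.89 beside -0.82 over all. Whether these values relate to aubergine or vasa was not tested.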
